A study of Homo sapiens with 3 samples.

Results

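NKD1, AXIN2, APC and PYGO1 are 4 genes of the Wnt pathway that were followed across 3 RNA-seq libraries of PLC, a human liver cancer cell line. They are 4 of 12034 gene symbols with at least 1 RefSeq row in the deposited table, and each gene was taken as the sum of its RefSeq messenger RNA rows. They were selected on their role in Wnt signalling with the log2 ratios of both knockdowns against the control already known, so those ratios are given as a description. The libraries were shHKDC1, in which short hairpin RNA knocked down the hexokinase family gene HKDC1, shRBBP5, in which it knocked down RBBP5, a core subunit of the complexes that methylate lysine 4 of histone H3, and NTC, the control. All 3 came from the same cell line grown in the same medium, with 1 library per group. Differences therefore have no replicate check, and no p-value is given. The labels used here do not give the hairpins, the number of clones or the time after knockdown. In such bulk libraries, fewer cells with a transcript and less of it per cell cannot be told apart.

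In the canonical Wnt pathway, a cytoplasmic destruction complex built on the scaffolds APC and axin marks beta-catenin for degradation. Wnt ligands, bound by Frizzled receptors and their co-receptors, switch that complex off, and beta-catenin then enters the nucleus and works with TCF/LEF factors, BCL9 and Pygopus proteins. AXIN2 and NKD1 are induced by the pathway and feed back on it as inhibitors. In the liver, Wnt signalling sets the gene programme of hepatocytes near the central vein, and it is often activated by mutation in hepatocellular carcinoma.

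The libraries held 115556160 units in shHKDC1, 154533913 in shRBBP5 and 161750310 in NTC, where a unit is the table's estimated count. Values are given as TMM-scaled CPM, units scaled to library size, and 1 fragment was taken as 4 units when counting error was worked out. All intervals are exact 95% intervals that cover counting error only. A gene was called higher or lower when it differed by at least 2-fold and the interval of its log2 ratio excluded 0. The table heads its knockdown columns only shHD and shRB, which were read as shHKDC1 and shRBBP5. HKDC1 and RBBP5 have no row of their own, so neither that reading nor the knockdown itself could be checked here. CTNNB1, AXIN1, TCF7L2, LEF1, MYC and CCND1 have none either. Of 19 hepatocyte markers only FGB, a fibrinogen chain, has a row, at 0.600 CPM in shHKDC1, 2.30 CPM in shRBBP5 and 2.41 CPM in NTC, and of 3 liver cancer markers none has one, so the cell type could not be checked further. Summed endothelial markers were at 0.765 CPM in shHKDC1, 0.163 CPM in shRBBP5 and 0.137 CPM in NTC, with all 4 having rows. Fibroblast markers, 5 of 6 with rows, summed to 0.0968 CPM in shHKDC1, 0.301 CPM in shRBBP5 and 0.348 CPM in NTC, and the 5 blood markers to 0.310 CPM in shHKDC1, 0.0564 CPM in shRBBP5 and 0.194 CPM in NTC. The part of such cells in the ratios was not tested. The collagen gene COL1A2, the endothelial receptor KDR and the blood genes PTPRC, CD3E and HBB were at 0 in all 3. Strand was not given, so reads of antisense partners cannot be told apart.

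APC is the member whose value depended most on which transcript row was read, and 2 of its rows start at different promoters. RefSeq lists an upstream and a downstream start for the gene on the plus strand of chromosome 5 in GRCh38.p14, while the table was made on hg19. In GENCODE release 29 the transcript linked to NM_001127511 starts 24 bases from the upstream site, and the one linked to NM_001354895 starts 3 bases from the downstream site. The 300-base windows around the sites, 250 bases before and 50 after, are shown because the NTC library alone has units on the upstream transcript. Capitals mark matches to 4 motifs searched on both strands: CTTTGA (the core bound by TCF/LEF), CACGTG (an E-box), CCAAT (read as ATTGG on the other strand) and AAGATGGC (the core bound by YY1).
APC upstream start, chr5:112707248-112707547, plus strand: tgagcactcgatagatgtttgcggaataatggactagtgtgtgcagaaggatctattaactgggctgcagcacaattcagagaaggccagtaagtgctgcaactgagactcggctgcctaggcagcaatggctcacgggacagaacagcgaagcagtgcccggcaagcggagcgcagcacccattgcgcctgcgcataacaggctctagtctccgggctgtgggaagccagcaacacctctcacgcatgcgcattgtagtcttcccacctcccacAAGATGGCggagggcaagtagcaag
APC downstream start, chr5:112737635-112737934, plus strand: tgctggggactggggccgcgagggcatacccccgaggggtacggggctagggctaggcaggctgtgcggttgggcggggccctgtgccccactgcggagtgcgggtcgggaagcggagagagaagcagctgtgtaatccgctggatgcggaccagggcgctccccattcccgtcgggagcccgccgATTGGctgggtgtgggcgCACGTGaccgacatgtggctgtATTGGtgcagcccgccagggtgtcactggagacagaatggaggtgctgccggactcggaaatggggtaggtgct
The upstream window holds 1 match, AAGATGGC, which begins 25 bases after the start site. Of all 35116 RefSeq promoter windows of that length, 2.89% hold AAGATGGC. The downstream window holds CACGTG, found in 7.26% of windows, and CCAAT at 2 places, found in 34.6%. CTTTGA, present in 12.9% of windows, is in neither. The upstream window has 14 CpG dinucleotides and the downstream window 23, where the median over all windows is 14.

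NKD1 binds Dishevelled and restrains Wnt signalling. It stood at 11.5 CPM [10.3 to 12.9] in shHKDC1, 6.38 CPM [5.61 to 7.20] in shRBBP5 and 5.23 CPM [4.57 to 5.95] in NTC. The shHKDC1 library was the high one, and the intervals of shRBBP5 and NTC overlapped. NKD1 has a single row, which is also its only RefSeq transcript, so no other RefSeq row could trade units with it. Whether units of NKD1 lie on anonymous assembled loci was not tested. The log2 ratio was 1.14 [0.89 to 1.40] for shHKDC1 over NTC, 0.29 [0.02 to 0.55] for shRBBP5 over NTC and 0.85 [0.61 to 1.10] for shHKDC1 over shRBBP5. With total-count scaling the first was 0.86 [0.61 to 1.12], which is no longer called, and it remained positive under each scaling run.

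AXIN2, the scaffold of the destruction complex that the pathway itself induces, ran in another order. It was at 3.89 CPM [3.15 to 4.71] in shHKDC1, 7.45 CPM [6.62 to 8.34] in shRBBP5 and 5.52 CPM [4.85 to 6.27] in NTC. The shHKDC1 library was lowest, shRBBP5 was highest and none of the 3 intervals overlapped. The log2 ratio was −0.50 [−0.86 to −0.17] for shHKDC1 over NTC and 0.43 [0.18 to 0.68] for shRBBP5 over NTC, neither of them called. Compared directly, shHKDC1 over shRBBP5 stood at −0.94 [−1.29 to −0.61], just short of 2-fold, and at −1.14 with total counts, which is called. With summed rows and TMM scaling, the 2 feedback inhibitors differed in sign in shHKDC1 over NTC and had the same sign in shRBBP5 over NTC. The shared sign was not firm. NKD1 there was at 0.22 [−0.05 to 0.48] with total counts and 0.25 [−0.01 to 0.51] with upper quartiles. The sign of AXIN2 there depended on the row read, and neither gene was called.

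The excess of AXIN2 in shRBBP5 was on 1 of its 2 rows. NM_001363813 carried 48.6% [42.7 to 54.3] of the gene's units in shRBBP5, against 11.2% [7.5 to 15.8] in NTC, and it carried 6.2% [2.2 to 12.6] in shHKDC1. On NM_004655, the larger row, the units were 377 in shHKDC1, 611 in shRBBP5 and 860 in NTC, or 3.65, 3.83 and 4.91 CPM. Read on that row alone, AXIN2 changed sign in shRBBP5 over NTC, at −0.36 [−0.66 to −0.05], and shHKDC1 over shRBBP5 came to −0.07 [−0.46 to 0.30].

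APC was at 3.77 CPM [3.08 to 4.62] in shHKDC1, 4.31 CPM [3.69 to 5.01] in shRBBP5 and 9.54 CPM [8.65 to 10.5] in NTC. Both knockdown libraries were low and their intervals overlapped, while NTC lay above both. The log2 ratio was −1.34 [−1.66 to −1.01] for shHKDC1 over NTC, −1.15 [−1.41 to −0.89] for shRBBP5 over NTC and −0.19 [−0.56 to 0.18] for shHKDC1 over shRBBP5. The first 2 ratios share the NTC library. Only 15 of the 37 RefSeq transcripts of APC have rows, and 12 of those 15 hold 0 units in all 3 libraries, so the value covers part of the gene.

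The low APC values rest on the upstream transcript shown above. NM_001127511 held 0 units in shHKDC1 and 0 in shRBBP5, against 801 units in NTC, where it made up 47.9% [43.0 to 52.8] of the gene. With 0 of about 98 fragments in shHKDC1 and 0 of about 172 in shRBBP5, 3 fragments, the limit taken for a count of 0, would be a share of 3.06% in shHKDC1 and 1.74% in shRBBP5, and the exact intervals reach 3.69% in shHKDC1 and 2.12% in shRBBP5. The downstream transcript NM_001354895 held 390 units in shHKDC1, 567 in shRBBP5 and 871 in NTC, or 3.77, 3.55 and 4.97 CPM. NM_001354896 held 120 units in shRBBP5 and 0 in shHKDC1 and NTC. Without NM_001127511 the APC ratio was −0.40 [−0.75 to −0.04] for shHKDC1 over NTC and −0.21 [−0.50 to 0.09] for shRBBP5 over NTC, and neither was called.

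Such moves between rows were common in the table. Among 721 genes with 2 or more rows and a mean of at least 1 CPM, 54.1% moved at least 25 percentage points of their units between rows in shHKDC1 against NTC, 41.3% in shRBBP5 against NTC and 49.5% in shHKDC1 against shRBBP5. For APC the move was 47.9 points in each knockdown against NTC, and for AXIN2 it was 4.94 points in shHKDC1 and 37.4 in shRBBP5. For PYGO1 it was 39.2 points in shHKDC1 and 13.6 in shRBBP5. The median gene moved 30.7 points in shHKDC1 and 18.7 in shRBBP5 against NTC, and the upper quartiles were 67.9 and 43.4 points. APC thus lay between the median and the upper quartile in shHKDC1 and above the upper quartile in shRBBP5. Whether it reflects a change of promoter or the way reads were assigned to overlapping transcripts was not tested.

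**Figure D1:**
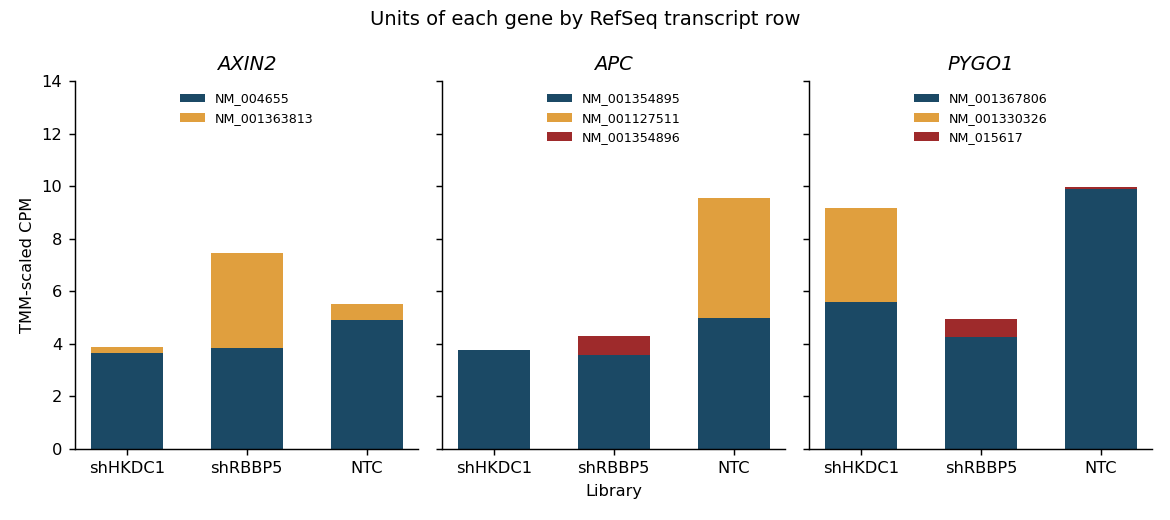
Stacked bars give the TMM-scaled CPM (vertical axis) of AXIN2, APC and PYGO1 in the shHKDC1, shRBBP5 and NTC libraries (horizontal axis), with 1 colour per RefSeq transcript row that holds any units. The upstream APC transcript NM_001127511 appears only in NTC, NM_001363813 of AXIN2 is larger in shRBBP5 than in the other libraries, and NM_001330326 of PYGO1 appears only in shHKDC1.

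PYGO1, a nuclear co-activator of beta-catenin whose PHD finger binds methylated lysine 4 of histone H3, was at 9.19 CPM [8.04 to 10.4] in shHKDC1, 4.95 CPM [4.27 to 5.68] in shRBBP5 and 9.96 CPM [9.04 to 10.9] in NTC. The shRBBP5 library was the low one, and the intervals of shHKDC1 and NTC overlapped. The log2 ratio was −0.12 [−0.35 to 0.11] for shHKDC1 over NTC, −1.01 [−1.26 to −0.76] for shRBBP5 over NTC, which is 2.01-fold lower, and 0.89 [0.61 to 1.17] for shHKDC1 over shRBBP5. The call in shRBBP5 sits at the 2-fold limit.

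The level of PYGO1 in shHKDC1 came in part from a row that was at 0 elsewhere. NM_001330326 held 372 units in shHKDC1, 39.2% [33.0 to 45.8] of the gene, and 0 units in shRBBP5 and NTC. NM_001367806, the largest row, held 577 units in shHKDC1, 676 in shRBBP5 and 1733 in NTC, or 5.58, 4.24 and 9.89 CPM. NM_015617 held 0 units in shHKDC1, 113 in shRBBP5 and 12 in NTC. On NM_001367806 alone both knockdown libraries were below NTC, with a ratio of −0.82 [−1.11 to −0.55] in shHKDC1 and −1.22 in shRBBP5, and the first was still not called.

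Among the 4 genes, 1 was called higher and 1 lower in shHKDC1 over NTC, where 8.37% of 1015 named genes were higher and 23.1% lower. A named gene is one with every RefSeq transcript on a row of its own and a mean of at least 1 CPM. APC, named in part, is not among them. In shRBBP5 over NTC 0 of the 4 were higher and 2 were lower, beside 2.27% and 8.67% of named genes. In shHKDC1 over shRBBP5 none of the 4 was called in either direction, beside 11.4% higher and 17.4% lower. The median log2 ratio of the 4 was −0.31 in shHKDC1 and −0.36 in shRBBP5, against −0.39 and −0.20 over named genes. Over all 13370 features of at least 1 CPM, mostly anonymous assembled loci, the medians were −0.027 and 0.008. Named genes thus sat lower as a class. Of those features, 1067 were higher and 1603 lower in shHKDC1 over NTC, and 231 and 357 in shRBBP5 over NTC. In shHKDC1 over shRBBP5 they were 1017 and 1346. The split of calls over named genes depended on scaling. It was 85 higher and 234 lower in shHKDC1 over NTC, against 59 and 346 with total counts. In shHKDC1 over shRBBP5 it was 116 higher and 177 lower, against 86 and 249 with total counts and 139 and 141 with upper quartiles. Since the members were chosen with these ratios known, nothing is read from the counts.

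**Figure D2:**
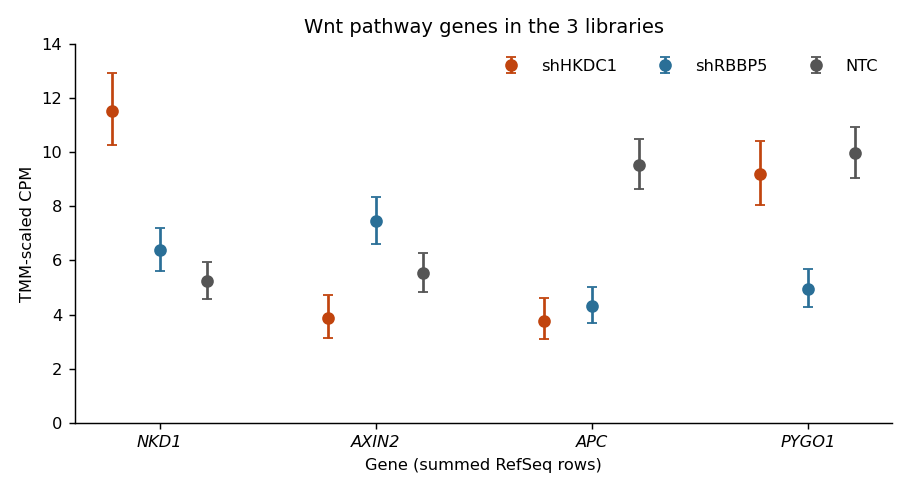
Points give the TMM-scaled CPM (vertical axis) of each gene (horizontal axis) in the shHKDC1, shRBBP5 and NTC libraries, with bars for the exact 95% Poisson interval of counting error. NKD1 is high in shHKDC1 alone, APC is low in both knockdown libraries, PYGO1 is low in shRBBP5 alone, and AXIN2 takes a separate level in each library.

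The rest of the pathway was read from 6 lists of 154 genes, the 4 members included. Rows of their own were found for 57 of these genes, and 13 reached a mean of 1 CPM. In shHKDC1 over NTC the 13 divided into 2 called higher, 3 called lower and 8 not called, beside 8.37% of named genes higher and 23.1% lower. In shRBBP5 over NTC 0 were called higher and 2 lower, beside 2.27% and 8.67% of named genes. In shHKDC1 over shRBBP5 1 was called in each direction, beside 11.4% higher and 17.4% lower. SFRP1, which reached the filter through shHKDC1 alone, is 1 of the 2 higher calls over NTC and the only higher call over shRBBP5, so its call was fixed by the filter. The median log2 ratio of the 13 was −0.16 in shHKDC1 and −0.51 in shRBBP5 against NTC. Medians were −0.39 and −0.20 over named genes, and −0.027 and 0.008 over all features.

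Among ligands and their secretion factors 20 of 25 genes have rows and 0 reached a mean of 1 CPM on those rows. Whether further units of the list genes lie on anonymous assembled loci was not tested. WNT9A, a ligand, was at 0.900 CPM in shHKDC1, 0.796 in shRBBP5 and 1.03 in NTC. Among receptors 2 of 19 were measured. ROR1, a receptor tyrosine kinase that binds WNT5A, was at 3.10 CPM in shHKDC1, 4.55 CPM in shRBBP5 and 6.49 CPM in NTC. It was called lower in shHKDC1 (log2 −1.07 [−1.44 to −0.70]), a call that ended with upper-quartile scaling (−0.99), and not in shRBBP5 (−0.51 [−0.78 to −0.23]). FZD7, a Frizzled receptor often described in liver cancer, lay between 4.34 and 4.71 CPM and was not called. Its interval excluded 0 in none of the 3 comparisons with TMM scaling, but did with total counts in shHKDC1 over NTC (−0.40 [−0.74 to −0.055]).

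Among secreted and membrane inhibitors 2 of 22 were measured. One of them, SFRP1, which binds Wnt ligands outside the cell, had the largest ratio of the 13 measured genes. SFRP1 stood at 6.44 CPM [5.49 to 7.48] in shHKDC1, 0.138 CPM [0.0552 to 0.327] in shRBBP5 and 0.280 CPM [0.142 to 0.479] in NTC. It was near the limit of counting in shRBBP5 and NTC, with 22 and 49 units, and held 665 units in shHKDC1, all on 1 row. The log2 ratio was 4.51 [3.71 to 5.53] for shHKDC1 over NTC and 5.51 [4.26 to 6.88] for shHKDC1 over shRBBP5. SFRP1 passed the CPM filter through shHKDC1 alone, so it had to differ, and it is set out here as a level. TRABD2A, a membrane protease that inactivates Wnt ligands, was at 2.85 CPM in shHKDC1, 2.16 CPM in shRBBP5 and 3.18 CPM in NTC and was not called. Between its rows 34.4 points of units moved in shHKDC1 against NTC and 27.8 in shRBBP5.

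Of 35 cytoplasmic genes 5 were measured, and NKD1, AXIN2 and APC are among them. DACT1, a Dishevelled-binding regulator of Wnt signalling, was at 1.37 CPM [0.976 to 1.93] in shHKDC1, 3.74 CPM [3.16 to 4.39] in shRBBP5 and 5.46 CPM [4.79 to 6.19] in NTC. The libraries did not overlap in counting error, and shHKDC1 was lowest. The ratio was −1.99 [−2.52 to −1.46] for shHKDC1 over NTC, −0.55 [−0.85 to −0.25] for shRBBP5 over NTC and −1.44 [−1.99 to −0.89] for shHKDC1 over shRBBP5. The units of DACT1 moved 36.6 points between rows in shHKDC1 against NTC and 1.27 in shRBBP5. TNKS, the tankyrase that marks axin for degradation, was at 3.95 CPM in shHKDC1, 6.46 CPM in shRBBP5 and 6.64 CPM in NTC, with −0.75 [−1.09 to −0.42] in shHKDC1 over NTC. That value was not called, and became −1.03 and called with total counts.

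Of 30 nuclear genes PYGO1 and HIPK2 were measured. HIPK2, a kinase that phosphorylates TCF/LEF factors, was at 2.88 CPM in shHKDC1, 2.36 CPM in shRBBP5 and 4.001 CPM in NTC, with −0.47 [−0.89 to −0.08] and −0.76 [−1.14 to −0.39] in shHKDC1 and shRBBP5 over NTC. The units of HIPK2 moved 18.0 points between rows in shHKDC1 against NTC and 44.9 in shRBBP5. Of 32 target genes 4 were measured, NKD1, AXIN2 and the ephrin receptors EPHB2 and EPHB3. EPHB2 lay between 4.39 and 4.87 CPM in the 3 libraries, and the sign of its small ratio in shHKDC1 turned with total counts (0.15, and −0.13). Between its rows 55.8 points of units moved in shHKDC1 against NTC and 2.18 in shRBBP5. EPHB3 was at 2.39 CPM in shHKDC1, 1.66 CPM in shRBBP5 and 1.53 CPM in NTC and was not called.

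**Figure D3:**
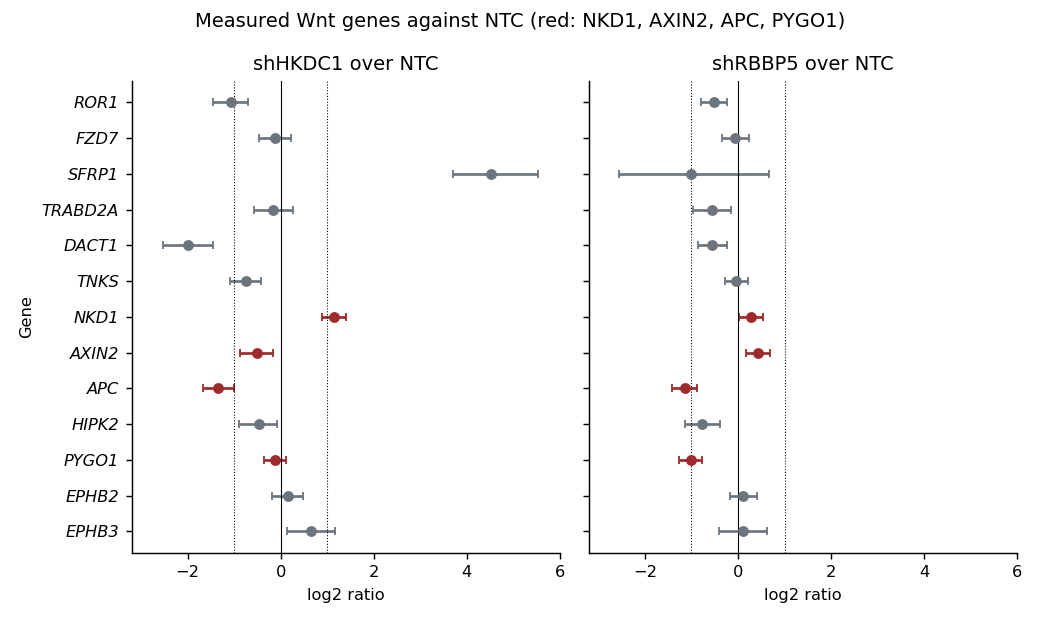
Log2 ratios (horizontal axis) of the 13 measured Wnt genes (vertical axis, from receptors at the top through inhibitors, cytoplasmic and nuclear proteins to targets) are shown for shHKDC1 over NTC and shRBBP5 over NTC, which share the NTC library. Bars are exact 95% intervals of counting error, dotted lines mark a 2-fold difference, and SFRP1 at 4.51 and DACT1 at −1.99 stand farthest from 0 in shHKDC1. SFRP1 passed the CPM filter through shHKDC1 alone, so it had to differ there.

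By distance between the pair of log2 ratios against NTC, taken over 3 libraries and 912 or 913 named protein-coding genes, the genes nearest to NKD1 were FAAH2, GALNT16 and C19orf38, at distances of 0.07 to 0.13. For AXIN2 they were SLC46A3 and LETM2, at 0.03 and 0.05, and for APC ZDBF2, SPEF2 and DGKH, at 0.12 to 0.14. The nearest to PYGO1 were PPM1L, TSHZ1 and TRIM55, at 0.12 to 0.13.

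**Figure D4:**
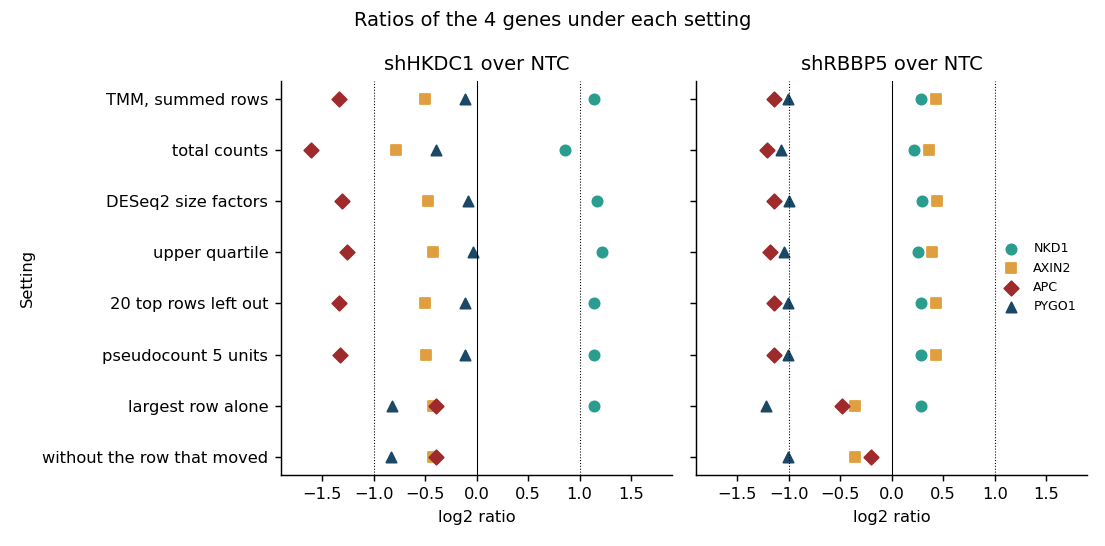
Log2 ratios (horizontal axis) of NKD1, AXIN2, APC and PYGO1 are plotted under each setting (vertical axis) for shHKDC1 over NTC and shRBBP5 over NTC, with dotted lines at a 2-fold difference. NKD1 falls to 0.86 with total counts in shHKDC1, APC moves to −0.40 without its upstream transcript, and AXIN2 changes sign in shRBBP5 without NM_001363813.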

How the data were processed

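RNA-seq of PLC cells was analysed in 3 libraries, 1 per group, grouped by the titles in the labels. The columns are headed NTC, shHD and shRB, and the last 2 were matched to shHKDC1 and shRBBP5 by abbreviation. The submitters' processing notes name HISAT2 2.2.1, StringTie 1.3.4, DESeq2 1.28.1 and hg19 but not what each was used for. The authors deposited expected counts (estimated counts, here called units) for 43704 rows, of which 16301 are anonymous assembled loci and 27403 are RefSeq transcripts, not scaled for depth or length. Anonymous loci hold 99.60% of the units in shHKDC1, 99.53% in shRBBP5 and 99.43% in NTC, so RefSeq rows hold the smallest share in shHKDC1. Whether further reads of a gene lie in anonymous loci was not tested. Annotation, strand and counting tool: not given in the sources used here.

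RefSeq rows were matched to symbols by accession in the GRCh38.p14 RefSeq annotation (27357 of 27403 rows) and summed per gene. TMM factors (edgeR 4.0.16, R 4.3.3, on loci and genes) were 0.894 for shHKDC1, 1.032 for shRBBP5 and 1.083 for NTC. Log2 ratios used a pseudocount of 0.5 units, and intervals are Clopper-Pearson bounds of a binomial conditional on the summed fragments. That 1 fragment is 4 units is an assumption from the values, which pile up at 4 (525 rows of NTC, against 332 at 3 and 235 at 5). With 1 library per group no test between groups was made. The labels name no molecular identifiers, so reads may repeat a molecule and intervals cover counting error only. At this depth 3 fragments were 0.116 CPM in shHKDC1, 0.0752 in shRBBP5 and 0.0685 in NTC. The ratio and its interval were also run on simulated counts drawn from the same counting model. Those counts held no moves between rows and no spread between replicates. The run therefore checks the calculation only, and not how the intervals behave in these data.

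The members and lists were chosen with earlier results of these data known. The rule named the 4 members, list genes with a mean of at least 1 CPM, list genes below that with at least 12 units in some library, alphabetically up to 15, and the 3 nearest genes per member, of which 1 is not reported here. WNT9A, WNT4, WNT3A, WLS, WNT9B and WNT10A were named after their values were seen. Alternatives were total counts, DESeq2 size factors (DESeq2 1.42.0), upper quartiles, a pseudocount of 5 units, units taken as reads, other CPM filters, the 20 most abundant rows left out, the largest row alone and, added after the data were seen, leaving out 1 row of AXIN2, APC and PYGO1. Other steps used Python 3.11.15, NumPy 2.4.6, SciPy 1.17.1 and pandas 2.3.3.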

Additional observations from a re-analysis of the deposited data

How the results depend on the processing

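No paired analysis was possible because each group has 1 library. Reading the largest row alone, or leaving out the row that moved most (chosen after seeing the data), put APC at −0.40 (both settings) in shHKDC1 over NTC and at −0.48 and −0.21 in shRBBP5 over NTC, which ended both calls because the units of NM_001127511 are then absent. The same settings put PYGO1 at −0.82 and −0.83 in shHKDC1 over NTC and at 0.40 and 0.18 in shHKDC1 over shRBBP5, and AXIN2 at −0.36 (both) in shRBBP5 over NTC and −0.069 (both) in shHKDC1 over shRBBP5. Why units sat on different rows was not tested. Total counts lower every ratio by a constant, −0.28 in shHKDC1 over NTC and −0.21 in shHKDC1 over shRBBP5. With them NKD1 was at 0.86 and PYGO1 at −0.39 in shHKDC1 over NTC, the Wnt genes called higher there went to 1, and those lower in shHKDC1 than in shRBBP5 went to 2. Upper quartiles raise ratios of shHKDC1 over shRBBP5 by 0.11 and took the Wnt genes higher in shHKDC1 than in shRBBP5 to 2, through PYGO1 at 1.01. DESeq2 size factors, a pseudocount of 5 units and the 20 most abundant rows left out changed no call of the 4 genes.

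With no CPM filter 57 Wnt genes were tested. Those called were 11 higher and 3 lower in shHKDC1 over NTC and 2 higher and 3 lower in shRBBP5 over NTC. In shHKDC1 over shRBBP5 they were 8 higher and 4 lower. Named genes, then 11642, were 557 higher and 472 lower, 134 and 291, and 661 and 390 in the same comparisons. With a mean of at least 5 CPM, fewer genes were tested, and of the Wnt lists only PYGO1, NKD1, APC, TNKS and AXIN2. These were 1 higher and 1 lower in shHKDC1 over NTC, and 0 and 2 in shRBBP5 over NTC. In shHKDC1 over shRBBP5 they were 0 and 0. Named genes were 2 higher and 48 lower, 0 and 7, and 3 and 32 in the same comparisons. How many named genes reached that limit was not counted. No share can therefore be set beside the Wnt counts there, and nothing is read from them. Taking each unit as a read put SFRP1 past the call in shRBBP5 over NTC (−1.002), and changed no other call on the lists. Where a gene held 0 units in a library, as LGR6 did in shRBBP5, its level there is known only to the limit of 3 fragments.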

Other observations

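Of the list genes with a row, 44 lay below a mean of 1 CPM, and 25 of these reached 12 units, about 3 fragments, in some library. Units in this section are not scaled for depth, and the shHKDC1 library was the smallest. LGR6, a receptor for R-spondins, was at 51 units in shHKDC1, 0 in shRBBP5 and 4 in NTC. RSPO4, an R-spondin ligand, was at 57, 8 and 11 units in shHKDC1, shRBBP5 and NTC. ASCL2, a Wnt-target transcription factor of intestinal stem cells, was at 59 units in shHKDC1, 0 in shRBBP5 and 29 in NTC. TLE4, a Groucho co-repressor of TCF/LEF factors, was at 75 units in shHKDC1 and 127 in shRBBP5, against 46 in NTC. Scaled, TLE4 was at 0.726, 0.796 and 0.263 CPM in the same order. SFRP5, a relative of SFRP1, was at 4 units in shHKDC1, 26 in shRBBP5 and 37 in NTC. Its ratio in shHKDC1 over NTC, −2.30 [−7.86 to 0.44], was not called. The hepatocyte Wnt target CYP2E1 was at 6 units in shHKDC1, 34 in shRBBP5 and 27 in NTC, and was not called (−1.32 [−4.35 to 1.35] in shHKDC1 over NTC). CYP1A2 held units in shRBBP5 alone, with 18, and was not called. The rule also named ABCB1, CD44, CXXC4, MMP7 and RSPO1, which were called in no comparison.

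With the CPM filter removed, 11 of the 57 Wnt genes with a row were called higher and 3 lower in shHKDC1 over NTC. NKD1 and SFRP1 among the 11 were already measured, as were the 3 lower, APC, ROR1 and DACT1. Beside LGR6, RSPO4, ASCL2, TLE4, the receptor ROR2 and the protease TRABD2B, they included the ligands WNT4, at 81 units in shHKDC1, 24 in shRBBP5 and 30 in NTC, and WNT3A, at 48, 19 and 9 units in shHKDC1, shRBBP5 and NTC, and the Wnt carrier WLS, at 25, 0 and 4 units in the same order. In shHKDC1 over shRBBP5, 8 of the 57 were called higher and 4 lower. Beside DACT1, the lower ones were the ligands WNT9B, at 0 units in shHKDC1 and 49 in shRBBP5, with 6 in NTC, and WNT10A, at 0 units in shHKDC1 and 37 in shRBBP5, with 21 in NTC, and the secreted inhibitor SOSTDC1, at 0 units in shHKDC1 and 31 in shRBBP5, with 12 in NTC. Against the limit of 3 fragments in shHKDC1, WNT9B was at least 2.64-fold lower and SOSTDC1 at least 1.67-fold lower, with WNT10A between them. Without that filter 11642 genes had every RefSeq transcript on a row. Of these, 557 were higher and 472 lower in shHKDC1 over NTC, where the filter left 85 and 234 of 1015. In shHKDC1 over shRBBP5 they were 661 and 390 without the filter. All these values rest on few fragments. LGR6, RSPO4 and WLS reached 12 units through shHKDC1 alone, and WNT9B through shRBBP5 alone. They had to differ between libraries, so they are set out as levels and nothing is read from their calls.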
